A study of Mus musculus with 12 samples.

Results

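Splicing factors of the Srsf, Hnrnp, Sf3, Snrp, Rbfox, Mbnl, Celf and Ptbp families were examined in primary mouse hepatic stellate cells. These are liver pericytes that store vitamin A when quiescent and become matrix-producing myofibroblasts on activation. Members were the genes of the deposited table whose symbol starts with one of these family names (Sf3a and Sf3b for Sf3), and no expression value entered the choice. They were 63 of the 12081 listed genes: 20 Hnrnp, 12 Snrp, 10 Srsf, 9 Sf3, 4 Celf, 3 Mbnl, 3 Ptbp and 2 Rbfox genes. Of the 67 protein-coding genes with such symbols in the GENCODE annotation of mm10, Celf3, Celf6, Rbfox1 and Srsf12 were not listed and are not analysed here.

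All cells carried Hk2 fl/fl, a conditional allele of the gene for hexokinase 2, which phosphorylates glucose in the first step of glycolysis. Quiescent cells (QS) were untreated and freshly isolated from liver by density gradient. Activated cells (ACT) had received an adenovirus for eGFP and were kept in culture for 6 days, knockout cells (KO) an adenovirus for a Cre recombinase fused to eGFP with the same time in culture, and LAC cells were KO cells given 10 mM lactate for 24 h. Each group had 3 libraries of poly(A) RNA. Whether replicate libraries were made from different mice is not in the labels, so the p-values measure the spread among these samples and that may be technical. KO differed from ACT both in Hk2 and in exposure to Cre, and these cannot be told apart, and no group of ACT cells given lactate was compared. ACT differed from QS in activation, in time in culture and in the adenovirus, and these cannot be told apart either. Below, a change on activation means a difference between ACT and QS.

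Pre-mRNA splicing is carried out by the spliceosome, whose small nuclear ribonucleoproteins (snRNPs) are built on a ring of Sm proteins encoded by Snrp genes, and whose U2 particle holds the SF3A and SF3B complexes that recognise the branch point. SR proteins (Srsf genes) bind exonic enhancers and mostly favour exon inclusion, while hnRNPs coat nascent transcripts and often oppose it. PTBP, MBNL, CELF and RBFOX proteins bind short motifs beside particular exons and set cell-type programmes of splicing. Levels below are the authors' normalised CPM (counts per 1e6, with a further scaling factor of each library) per gene. These levels are summed over the transcripts of the gene, so they say nothing about which isoform was made. Fold changes are differences of mean log2(CPM + 1) with their standard error, and a gene was called at a Benjamini-Hochberg adjusted p under 0.05 in limma over all listed genes.

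The libraries held an estimated 4.35 to 14 M reads in listed genes (M stands for 1e6), and 3 reads corresponded to 0.212 to 0.720 CPM. Hk2 was at 73.3, 66.7 and 73.5 CPM in QS, 181, 182 and 181 in ACT, 10.7, 13.7 and 11.9 in KO and 18.7, 19.6 and 19.7 in LAC, so the KO and LAC libraries lay below all others. The summed level of 15 stellate cell markers was 4650 to 4744 CPM in QS, 1149 to 1151 in ACT, 1533 to 1654 in KO and 1554 to 1624 in LAC. That of 15 myofibroblast markers was 852 to 907 CPM in QS, 28460 to 28819 in ACT, 7911 to 8606 in KO and 14465 to 15308 in LAC. Markers of other liver cells were present and moved between groups. The sum of 20 macrophage markers was 6214 to 6317 CPM in QS, 15334 to 15687 in ACT, 543 to 563 in KO and 3853 to 3892 in LAC. For 20 endothelial markers the sums were 19766 to 20265, 902 to 929, 9897 to 11086 and 5447 to 5699 CPM in the same order, and for the 18 listed of 20 hepatocyte markers 2479 to 2543, 147 to 159, 564 to 617 and 260.0 to 270.4 CPM. In bulk RNA, fewer cells of a type and less RNA per cell cannot be told apart. Of 20 lymphocyte and neutrophil markers 3 were listed.

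The summed level of the 63 splicing factors was 9309 to 9538 CPM in QS, 9256 to 9608 in ACT, 9297 to 9665 in KO and 8501 to 8737 in LAC. On this scale the 3 LAC libraries were the lowest of all 12, and the other groups overlapped. As a share of each library's column total the order differed: the members made up 0.890% to 0.913% in QS, 0.936% to 0.970% in ACT, 0.952% to 1.01% in KO and 0.866% to 0.895% in LAC, so that QS lay below ACT and KO and overlapped LAC. Every listed gene reached 1 CPM in at least 3 libraries, and Celf5 and Rbfox3 met that limit only through some of the groups. Both are among the members counted below as higher, by at least 1.5-fold, in KO and in LAC than in ACT. Replicates were close to each other: the coefficient of variation had a median, over the 55 members averaging 20 CPM or more, of 3.57% in ACT, 4.35% in LAC, 5.24% in QS and 5.89% in KO.

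**Figure D1:**
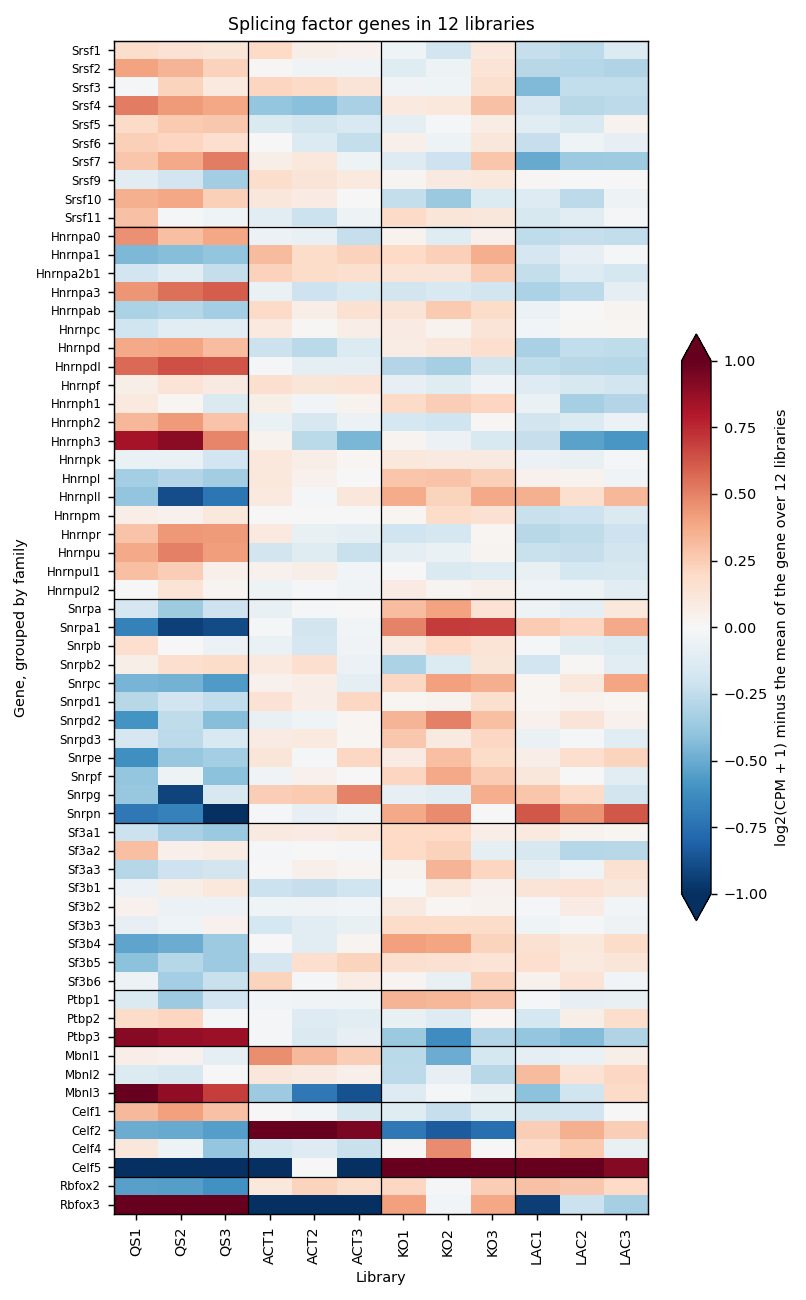
Level of each of the 63 splicing factor genes (rows, by family) in each of the 12 libraries (columns, by group), as log2(CPM + 1) minus the gene's mean over all libraries. Snrp genes are mostly lowest in QS, most Srsf genes are highest there, and Celf2 is highest in ACT.

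Between quiescent and activated cells, 50 of the 63 members passed the test, 28 being higher and 22 lower in ACT (44.4% and 34.9%), where 73.5% of all listed genes were called, 38.0% as higher and 35.5% as lower. The changes were small: 15 of the 50 (23.8% of the members) reached 1.5-fold, against 48.5% of all genes. Between ACT and KO, 22 members were called higher in KO and 7 lower (34.9% and 11.1%), against 36.0% and 26.3% of all genes (62.4% in either direction). Of these, 5 members reached 1.5-fold, against 33.6% of all genes. Without KO replicate 3 the number called lower was 12, and with quantile normalisation the split was 19 higher and 10 lower. With lactate, 27 members were lower in LAC than in KO and 3 were higher (42.9% and 4.76%), against 21.0% and 20.0% of all genes (41.0% in either direction), and 2 members reached 1.5-fold, against 14.8%. In LAC compared with ACT, 18 were lower and 7 higher (28.6% and 11.1%), against 21.7% and 27.8% of all genes (49.5% in either direction), and 4 members reached 1.5-fold, against 23.9%. The median member changed by 0.03, 0.08, -0.13 and -0.04 (log2) in these 4 comparisons, and the median gene by 0.03, 0.07, -0.02 and 0.03. The comparisons share libraries (KO enters the second and the third), so they are not independent of each other.

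**Figure D2:**
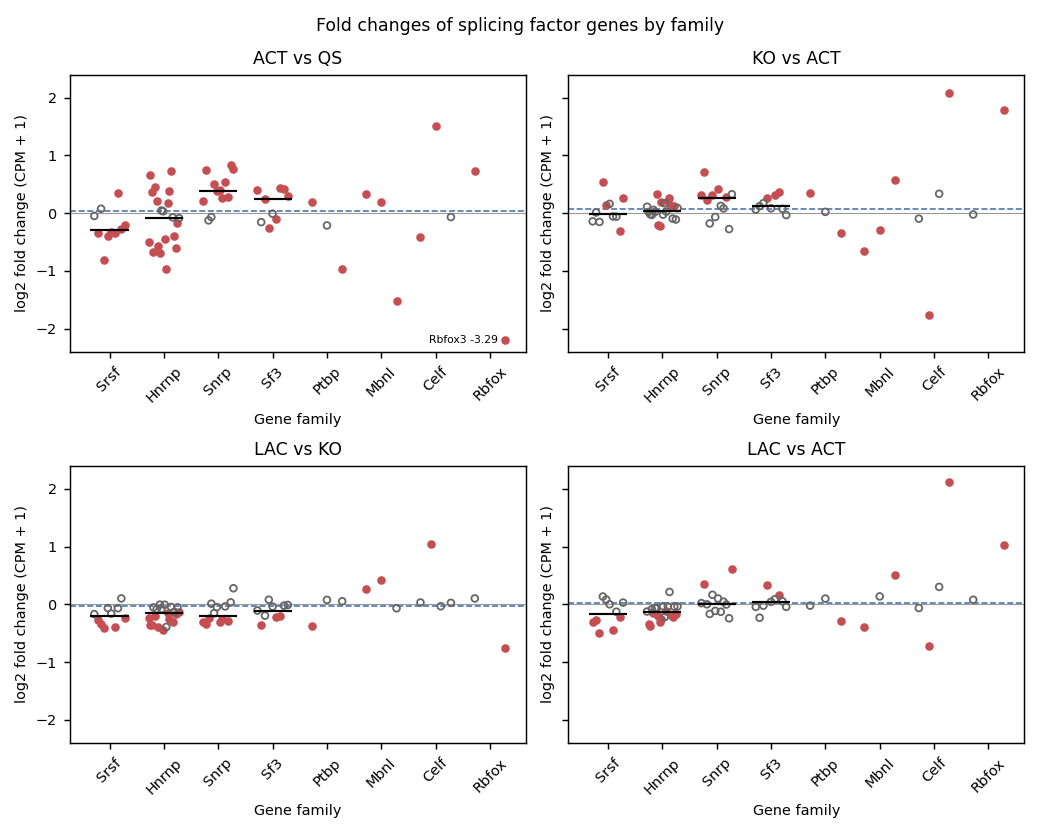
Log2 fold change (CPM + 1) of each splicing factor gene by family in the 4 comparisons, with filled red points for genes called by limma, open points for genes not called, a black bar at the median of families with at least 9 listed genes and a dashed line at the median of all listed genes. Snrp points lie mostly above the dashed line in ACT vs QS and KO vs ACT, and those of the 4 large families mostly below it in LAC vs KO. Rbfox3 is drawn at the axis limit with its value in ACT vs QS, where Celf5 is left out because it was listed at 0 in QS, and the sizes for these scarce genes depend on the added 1 CPM.

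Most SR protein genes were lower in activated than in quiescent cells: of 10, 7 fell and only Srsf9 rose, with a family median of -0.30 (log2). These were 70.0% and 10.0% of the family, against 35.5% and 38.0% of all genes. Under quantile normalisation the counts were 4 lower and 2 higher, still with a median below 0 (-0.15). Srsf4 (chr4:131873617-131901706 of mm10), whose protein is one of the large SR proteins, was at 54.3, 51.1 and 49.6 CPM in QS, 28.7, 28 and 30 in ACT, 40.5, 40.7 and 46.5 in KO and 33.4, 31 and 31.3 in LAC. QS was highest, KO lay between QS and ACT, and every LAC library was below every KO library and above every ACT library. Srsf4 fell by 0.82 (SE 0.07, log2) from QS to ACT with an adjusted p of 1.23e-07, was higher by 0.54 ± 0.07 in KO than in ACT (adjusted p = 1.43e-05) and fell by 0.40 from KO to LAC (adjusted p = 0.000463). Its difference between LAC and ACT missed the threshold (adjusted p = 0.131).

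Other SR genes that fell on activation were Srsf2, which encodes the SR protein SC35, at 176 ± 10.5 CPM in QS and 138 ± 2.82 in ACT (mean ± SD, n = 3 here and below), Srsf5 at 199.8 ± 6.01 and 151 ± 2.39, and Srsf6 at 141 ± 3.5 and 112 ± 9.77. Srsf7 and Srsf10 fell as well, and both calls were lost under quantile normalisation. Srsf11 was also called lower in ACT (limma adjusted p = 0.04). That call was lost with equal library totals, equal library medians or quantile normalisation, and on leaving out single libraries. Srsf9 rose from 43 ± 3.61 to 54.9 ± 1.45 CPM. Srsf1, the founding member of the family, was at 125 ± 2.12 CPM in QS and 121 ± 7.14 in ACT, and Srsf3, the smallest SR protein, at 160.1 ± 13.1 and 169 ± 5.24, both without a call.

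Of the 10 SR genes, 5 were lower in LAC than in KO and 5 lower in LAC than in ACT. None was called higher in either comparison by limma, also at an unadjusted p under 0.05. Among all genes, 21.0% were lower and 20.0% higher in LAC than in KO. In LAC compared with ACT these shares were 21.7% and 27.8%. For Srsf3 the levels were 148, 174 and 159 CPM in QS, 173, 169.9 and 163 in ACT, 145, 144 and 166 in KO and 109, 125 and 125 in LAC. QS, ACT and KO overlapped, and the LAC libraries were below all 9 others. Srsf3 fell by 0.34 (SE 0.07, log2) from KO to LAC with an adjusted p of 0.0018, and was lower in LAC than in ACT by a log2 difference of -0.49 ± 0.07 (adjusted p = 5.61e-05). Srsf7, a relative of Srsf3 with a zinc knuckle, was at 60.6, 57.6 and 80.9 CPM in KO and 46.6, 51.6 and 51.8 in LAC, a log2 difference of -0.39 ± 0.11 (adjusted p = 0.0102). The third KO library was well above the other two for Srsf7. Srsf2 fell by 0.28 to 115 ± 0.967 CPM. Srsf1 was at 110.3 ± 11.3 CPM in KO and 97.8 ± 4.58 in LAC without a call (adjusted p = 0.0621), and was lower in LAC than in ACT by a log2 difference of -0.31 (adjusted p = 0.00157). Srsf10, an SR-like protein that acts as a repressor when dephosphorylated, was lower in KO than in ACT (140.0 ± 5.67 and 113 ± 9.16 CPM, log2 difference -0.31). It did not pass the test between KO and LAC, where its mean was 121 ± 8.95 CPM.

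SR proteins limit their own amount by splicing in exons that send the transcript to nonsense-mediated decay. In the GENCODE annotation, 9 of the 10 Srsf genes (90%) had at least 1 transcript of the nonsense-mediated decay type, as had 3 of 3 Ptbp, 10 of 20 Hnrnp (50%), 4 of 12 Snrp (33.3%) and 1 of 9 Sf3 genes (11.1%). Over all members the share was 29 of 63 (46%), and 28.3% of the 11901 protein-coding genes of the table had one. Whether such transcripts entered the authors' gene-level values was not tested. Where they did, a change in an SR gene here is a change in the sum of these and the coding transcripts.

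The hnRNP genes split in both directions on activation, with 7 of 20 higher and 9 lower in ACT than in QS. Of all genes, 38.0% were called higher and 35.5% lower, so such a split was not particular to this family. The hnRNP median was near 0 at -0.08 (log2), and its sign changed with the scaling of the libraries. Hnrnpa1 (chr15:103240432-103246692), whose protein binds UAGG-like silencers and competes with SR proteins, was at 305, 310.2 and 316 CPM in QS, 518, 474 and 489.7 in ACT, 478, 492 and 535 in KO and 371, 394 and 413 in LAC. ACT and KO overlapped, the LAC libraries lay between QS and these, and no QS library reached any other group. The rise from QS to ACT was 0.67 ± 0.05 (log2, adjusted p = 1.93e-08), and the level fell by 0.35 from KO to LAC (SE 0.05, adjusted p = 6.27e-05). Hnrnpa2b1, its close paralogue, rose by 0.37 on activation, from 518 ± 22.2 to 670.3 ± 16 CPM. With lactate it fell by 0.36, from 662 ± 34 to 517 ± 19.8 CPM.

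Other hnRNP genes that rose on activation were Hnrnpab (395 ± 7.17 to 539.8 ± 23.5 CPM), Hnrnpl, a CA-repeat binding protein (138 ± 2.9 to 179 ± 6.27), and its relative Hnrnpll (28.9 ± 5.34 to 48.2 ± 2.42). Hnrnpc and Hnrnpk rose by no more than 0.20 (log2). Among the genes that fell, Hnrnpa3 went from 566 ± 31.6 to 355 ± 17.6 CPM, Hnrnpdl from 167 ± 4.34 to 104 ± 3.06, Hnrnpu, a scaffold protein of the nuclear matrix, from 223 ± 10.2 to 146 ± 4.98, and Hnrnph3 from 23.7 ± 3.66 to 11.6 ± 2.24. Hnrnpa1 and Hnrnpa3 have processed pseudogenes, so their values also rest on how shared reads were assigned.

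Between ACT and KO the hnRNP genes moved little: 6 were higher and 2 lower as deposited (30.0% and 10.0%, against 36.0% and 26.3% of all genes). Under quantile normalisation, 2 were higher and 3 lower. Hnrnpd (chr5:99955935-99978938), which encodes AUF1, a protein of AU-rich mRNA elements, was at 193, 195 and 184 CPM in QS, 127, 122 and 134 in ACT, 156, 160.0 and 167 in KO and 118, 125 and 124 in LAC. KO lay between QS and ACT with no overlap, and ACT and LAC overlapped. The log2 difference was 0.33 ± 0.05 from ACT to KO (adjusted p = 2.33e-05) and -0.39 ± 0.05 from KO to LAC (adjusted p = 1.05e-05). Hnrnpl also rose in KO, to 209 ± 3.55 CPM (0.22 ± 0.04, adjusted p = 0.00023). Hnrnpf, which binds G-rich runs, was lower in KO (448, 436 and 465 CPM) than in ACT (532, 517 and 524 CPM), a log2 difference of -0.22 (adjusted p = 4.86e-05). Hnrnph1, Hnrnpll, Hnrnpm and Hnrnpu were called higher in KO, and each of these calls was lost under quantile normalisation and on leaving out single libraries.

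After lactate, 11 of 20 hnRNP genes were lower than in KO, and 10 of 20 were lower than in ACT. The shares of all genes called lower were 21.0% and 21.7%. No hnRNP gene was called higher in limma in either comparison, also at an unadjusted p under 0.05. Among all genes, 20.0% and 27.8% were called higher. Hnrnph1 was at 165, 171 and 168 CPM in KO and 138, 115 and 118 in LAC and fell by 0.45 (SE 0.07, log2, adjusted p = 0.000153). Hnrnpm fell by 0.31 (221 ± 13 and 178 ± 4.85 CPM) and Hnrnpk, a KH-domain protein of C-rich RNA, fell by 0.14 (654 ± 3.75 and 594 ± 14.2 CPM). For these 3 genes every LAC library was below every KO library. Hnrnpc (237 ± 8.04 and 224 ± 3.77 CPM), Hnrnpa3 (347 ± 4.45 and 336 ± 28.6) and Hnrnpdl (90.4 ± 5.13 and 90.1 ± 1.03) did not pass the test.

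Most snRNP genes rose on activation: 10 of 12 were higher in ACT (83.3%, against 38.0% of all genes), with a family median of 0.39 (log2). None was called lower by limma, also at an unadjusted p under 0.05, while 35.5% of all genes were called lower. These counts were the same under each scaling of the libraries. The Sm ring is made of 7 proteins, and 6 of the 7 genes for them rose. Snrpe went from 29.8 ± 3.04 to 43.9 ± 3.45 CPM, Snrpd1 from 52.4 ± 1.57 to 68.4 ± 3.4, Snrpd2 from 24.3 ± 2.99 to 32.2 ± 1.12, Snrpd3 from 51.7 ± 2.17 to 62 ± 1.83, Snrpf from 19.5 ± 2.95 to 23.8 ± 0.697 and Snrpg from 8.35 ± 2.4 to 15.2 ± 1.64. Snrpb, the gene for SmB, was at 82.4 ± 6.91 CPM in QS and 75.3 ± 3.66 in ACT and was not called (adjusted p = 0.0954). The call of Snrpf was lost without QS replicate 1 or 3 and without ACT replicate 2 or 3. The summed level of 20 cell cycle genes moved with the Snrp genes on activation, from 480.3 to 504 CPM in QS to 1712 to 1731 in ACT, with 1278 to 1305 in KO and 1213 to 1237 in LAC, and its part in the result was not tested.

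Among the snRNP-specific proteins, Snrpa1 (chr7:66059003-66074587), which encodes the U2 protein A′, changed in every comparison. It was at 27.1, 22.6 and 23.2 CPM in QS, 43.3, 38.5 and 43 in ACT, 62.4, 71.9 and 71.7 in KO and 52.6, 51.2 and 57.5 in LAC. No 2 groups overlapped, in the order QS, ACT, LAC, KO. The log2 differences were 0.76 ± 0.09 from QS to ACT (adjusted p = 1.97e-06), 0.71 ± 0.09 from ACT to KO (adjusted p = 5.94e-06) and -0.35 ± 0.09 from KO to LAC (adjusted p = 0.00528). Its U2 partner Snrpb2, for the B″ protein, was called in none of the comparisons (37.9, 36.2, 32.1 and 32.2 CPM in QS, ACT, KO and LAC). The U1 genes Snrpa and Snrpc rose on activation, from 36.5 ± 2.6 to 42.2 ± 1.13 CPM and from 22.3 ± 0.932 to 32.1 ± 2.00 CPM, and Snrpa lost that call without QS replicate 2 and without ACT replicate 2 or 3.

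In KO, 6 of 12 Snrp genes were higher than in ACT, with a median of 0.26 (log2), and none was called lower at any of the scalings. As deposited, 36.0% of all genes were called higher and 26.3% lower. The 6 Snrp genes were Snrpa1, Snrpd2 (32.2 ± 1.12 to 43.3 ± 3.41 CPM), Snrpa (42.2 ± 1.13 to 53.1 ± 4.76), Snrpc (32.1 ± 2.00 to 40.3 ± 3.01), Snrpf (23.8 ± 0.697 to 29.1 ± 1.84) and Snrpb (75.3 ± 3.66 to 88.9 ± 3.4). With lactate, 6 of the 12 fell against KO, where 21.0% of all genes were lower. Those that fell were Snrpa1, Snrpa (43 ± 3.21 CPM in LAC), Snrpb (75.4 ± 3.69), Snrpd2 (34.6 ± 1.27), Snrpd3 (67.8 ± 4.25 to 56.7 ± 2.11) and Snrpf (23.8 ± 1.98). Of these calls, that of Snrpc in KO was lost without ACT replicate 3, that of Snrpd2 in LAC without KO replicate 2, and both of Snrpf on leaving out single libraries. Snrpn, an imprinted gene for a close relative of SmB that is best known from brain, rose from 4.52, 4.68 and 3.47 CPM in QS to 7.96, 7.58 and 7.81 in ACT. It was at 10.8, 11.5 and 8.04 in KO and 12.9, 11.3 and 12.9 in LAC, where it exceeded ACT by 0.61 ± 0.15 (log2, adjusted p = 0.00431). Snrpn and Snrpb encode nearly identical proteins, and the Sm genes have pseudogene copies, so reads shared between copies limit these values.

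The SF3 genes split by subunit on activation. Sf3a1, Sf3a3, Sf3b4, Sf3b5 and Sf3b6 rose, the last of them not without QS replicate 2 or ACT replicate 1. Sf3b1 (chr1:54985169-55027481), the large HEAT-repeat subunit that clamps the branch point, fell from 437, 475 and 489 CPM in QS to 393, 389 and 396 in ACT and was at 456, 489 and 469 in KO and 499, 503 and 494 in LAC. ACT was the lowest group and LAC the highest, with no overlap except between QS and KO. The log2 differences of Sf3b1 were -0.25 ± 0.04 from QS to ACT (adjusted p = 7.58e-05), 0.26 ± 0.04 from ACT to KO (adjusted p = 6.72e-05) and 0.34 ± 0.04 from ACT to LAC (adjusted p = 7.35e-06). Between KO and LAC the gene did not pass the test (adjusted p = 0.125). In LAC compared with ACT it was one of the 7 members called higher, beside 18 called lower.

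Sf3a1, a subunit of SF3A, rose from 62 ± 3.55 to 81.9 ± 0.792 CPM on activation and was called in no other comparison. Sf3b4, the subunit mutated in Nager syndrome, was at 55, 56.2 and 61.6 CPM in QS, 79.9, 74 and 81.1 in ACT, 106, 105 and 93.1 in KO and 88.5, 85.8 and 90.6 in LAC. The order was QS, ACT, LAC, KO, as for Snrpa1, without overlap. It rose by 0.44 (log2) from QS to ACT and by 0.37 from ACT to KO and fell by 0.19 from KO to LAC (adjusted p = 0.0242), a call that was lost without KO replicate 1 or 2 and without LAC replicate 1 or 2. Sf3b3 was at 184, 189 and 201 CPM in QS, 172, 179.8 and 185 in ACT, 221, 221 and 222 in KO and 189, 193 and 188 in LAC. KO stood above the 3 other groups, by 0.31 ± 0.04 over ACT (adjusted p = 1.18e-05), and the level fell by 0.22 in LAC (SE 0.04, adjusted p = 0.000597). The slight difference of Sf3b3 between QS and ACT (-0.10) changed sign under quantile normalisation (0.02). In all, 3 of 9 Sf3 genes (33.3%) were higher in KO than in ACT, near the 36.0% of all genes, and 3 (33.3%) were lower in LAC than in KO, where 21.0% of all genes were.

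Over the 4 large families (Srsf, Hnrnp, Sf3 and Snrp, 51 genes), 25 were lower and none higher in LAC than in KO by limma, and at an unadjusted p under 0.05 the counts were 30 lower and none higher. The 25 were 49.0% of these genes, while 21.0% of all genes were called lower and 20.0% higher. In each of these families every scaling left the median below 0. The 3 members that rose with lactate (Celf2, Mbnl1 and Mbnl2) all belong to the tissue-specific regulators. Between KO and LAC the hepatocyte, endothelial, macrophage and myofibroblast marker sums given above also moved. Lower in LAC were 17 of 18 hepatocyte and 18 of 20 endothelial markers, and higher were 16 of 20 macrophage and 15 of 15 myofibroblast markers. Their part in the result was not tested. Among the defining hepatocyte genes, Fga, Ahsg, Apoh, Cps1 and Cyp2e1 were listed at 0 in all LAC libraries.

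**Figure D3:**
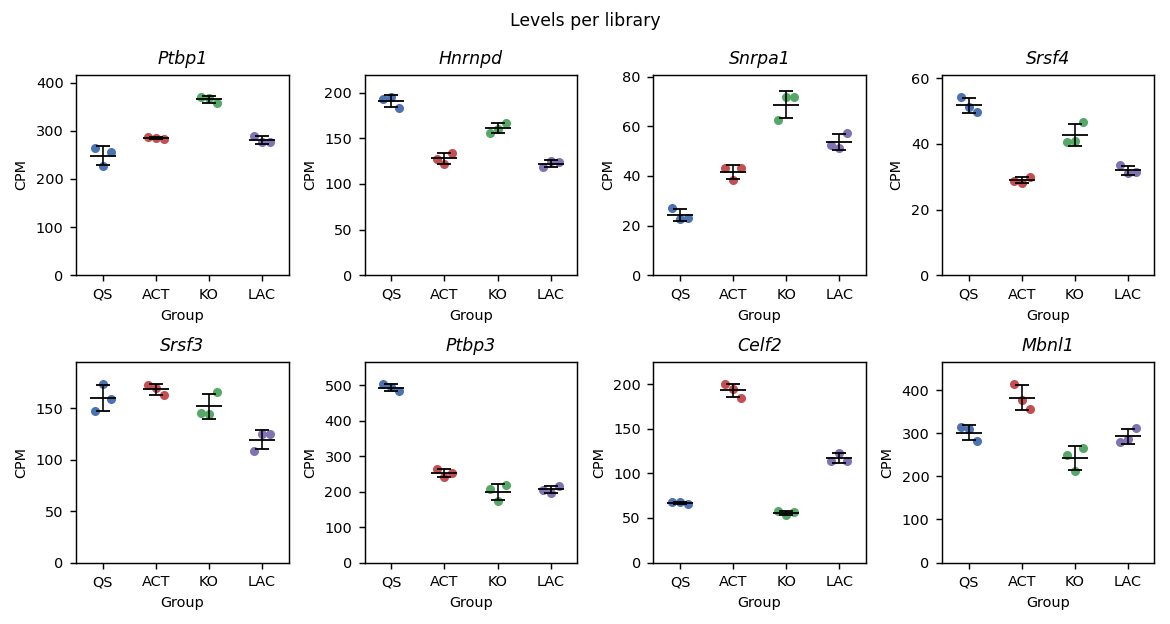
Level (CPM) of 8 splicing factor genes in the 3 libraries of each group (points), with the mean (long bar) and SD (error bars). Ptbp1, Hnrnpd and Snrpa1 stand higher in KO than in ACT and LAC, Srsf3 is lowest in LAC, Ptbp3 is highest in QS, and Celf2 and Mbnl1 are highest in ACT.

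To show what stands upstream of members with this order of ACT, KO and LAC, 4 promoters are printed, for Ptbp1, Snrpa1, Sf3b3 and Hnrnpd. They were chosen after their values were seen, each gene being called higher in KO than in ACT and lower in LAC than in KO. Each is the 250 bases before the RefSeq start of transcription in GRCm38.p6 (mm10), read 5′ to 3′ on the strand of the gene. Capitals mark matches, on either strand, to 4 motifs: CCGGAAG (bound by ETS factors), CACGTG (the E-box of Myc and related factors), GGGCGG (the GC box of Sp1) and CCAAT (bound by NF-Y). No matches overlapped in these windows.
Ptbp1, chr10:79854182-79854431, plus strand: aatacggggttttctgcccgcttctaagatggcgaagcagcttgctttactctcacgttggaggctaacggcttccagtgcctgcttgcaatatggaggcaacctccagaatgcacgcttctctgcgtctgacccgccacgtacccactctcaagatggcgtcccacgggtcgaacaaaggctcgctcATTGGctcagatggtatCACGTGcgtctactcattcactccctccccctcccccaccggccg
Snrpa1, chr7:66060086-66060335, plus strand: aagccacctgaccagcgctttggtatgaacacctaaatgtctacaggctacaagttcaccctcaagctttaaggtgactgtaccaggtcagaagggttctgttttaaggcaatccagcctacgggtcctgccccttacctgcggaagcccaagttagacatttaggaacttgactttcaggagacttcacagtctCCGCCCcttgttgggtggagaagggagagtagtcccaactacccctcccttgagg
Sf3b3, chr8:110846804-110847053, minus strand: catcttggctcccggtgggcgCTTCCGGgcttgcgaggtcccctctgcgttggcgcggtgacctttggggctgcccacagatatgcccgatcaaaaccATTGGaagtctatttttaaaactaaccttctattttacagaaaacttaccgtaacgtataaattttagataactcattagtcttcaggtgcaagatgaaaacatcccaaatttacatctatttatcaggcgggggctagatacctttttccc
Hnrnpd, chr5:99978939-99979188, minus strand: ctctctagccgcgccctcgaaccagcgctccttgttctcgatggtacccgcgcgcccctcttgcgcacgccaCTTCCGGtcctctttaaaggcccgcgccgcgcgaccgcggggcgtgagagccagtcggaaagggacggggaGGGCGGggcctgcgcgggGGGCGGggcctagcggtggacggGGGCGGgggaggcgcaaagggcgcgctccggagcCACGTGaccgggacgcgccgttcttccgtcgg

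The 4 windows had no motif in common. In the GENCODE annotation, the window of Ptbp1 lies in an exon of the antisense gene E130317F20Rik and includes 5 bases of an annotated Ptbp1 first exon. That of Hnrnpd shares 128 bases with a coding exon of the divergent gene 4930524J08Rik. The window of Sf3b3 includes 20 bases of an exon of Cog4, a gene on the other strand, and that of Snrpa1 lies within the annotated spans of Snrpa1 and Gm45213. Of the 63 members, 54 had a RefSeq promoter and 42 had a single start. Among these 42, CCGGAAG was in 11 (26.2%), CACGTG in 3 (7.14%), GGGCGG in 29 (69.0%) and CCAAT in 19 (45.2%). Over the 7686 listed genes with a single start, the shares in windows of the same length were 14.7%, 8.42%, 61.1% and 37.3%. A match to these letters does not show that a factor binds there.

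The polypyrimidine tract binding proteins moved apart. Ptbp1 (chr10:79854427-79864771), which represses neuronal and muscle exons and favours the M2 form of Pkm, was at 263, 226 and 256 CPM in QS, 286, 285 and 284 in ACT, 370.4, 368 and 357 in KO and 289.9, 276 and 277 in LAC. KO stood above all other libraries, and ACT and LAC overlapped. The gene rose by 0.20 ± 0.05 (log2) from QS to ACT (adjusted p = 0.00201) and by 0.36 ± 0.05 from ACT to KO (adjusted p = 1.89e-05). It fell by 0.38 (SE 0.05) from KO to LAC (adjusted p = 2.72e-05), and LAC differed from ACT by -0.02 ± 0.05 (adjusted p = 0.757). Ptbp3, the paralogue first known from blood cells, went the other way, with 503, 493 and 483 CPM in QS, 264, 241 and 252 in ACT, 206, 173 and 218 in KO and 204, 197 and 217 in LAC. QS was about 2-fold above the rest, and KO and LAC overlapped. It fell by 0.96 (SE 0.07) from QS to ACT (adjusted p = 1.21e-08) and was lower again in KO by -0.35 (adjusted p = 0.00051). Ptbp2, the neuronal paralogue, was called in none of the comparisons and was at 37 ± 3.09, 31.8 ± 1.45, 32.3 ± 1.76 and 34.3 ± 4.3 CPM in QS, ACT, KO and LAC. Pkm itself, which encodes pyruvate kinase in 2 splice forms that these values do not separate, was at 1091 ± 46.6, 1455 ± 21.8, 1534 ± 38.4 and 1684 ± 55.2 CPM. It rose from QS to ACT (0.42, log2), and its rise from KO to LAC (0.13) changed sign under quantile normalisation.

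Celf2 (chr2:6539694-7509563), which binds GU-rich elements and is abundant in blood cells, brain and muscle, differed widely between the groups. It was at 67.7, 67.5 and 65.2 CPM in QS, 200.1, 194 and 185 in ACT, 58, 53.3 and 56.4 in KO and 114, 123 and 114 in LAC. No 2 groups overlapped, in the order KO, QS, LAC, ACT. The log2 differences were 1.52 ± 0.05 from QS to ACT (adjusted p = 2.28e-12), -1.77 ± 0.05 from ACT to KO (adjusted p = 7.92e-13) and 1.05 ± 0.05 from KO to LAC (adjusted p = 9.42e-10). The macrophage marker sum was likewise lowest in KO and highest in ACT, but higher in QS than in LAC, and of its 20 markers 18 fell from ACT to KO and 16 rose from KO to LAC (Timd4 was listed at 0 in the LAC libraries). The myofibroblast marker sum was also highest in ACT, but lowest in QS. Of its 15 markers, 14 rose from QS to ACT, 12 fell and 3 rose from ACT to KO, and all 15 rose from KO to LAC. The part of either marker set in the result was not tested. Celf1, the broadly expressed paralogue, fell from 100.1 ± 4.08 to 75.5 ± 4.31 CPM on activation and was then called in no comparison (70.5 ± 3.25 in KO and 72.3 ± 5.7 in LAC). Celf4 was called nowhere and stayed between 8.43 and 11 CPM in the group means. Celf5 was listed at 0 in the QS libraries, at 0, 1.62 and 0 CPM in ACT, 4.84, 4.56 and 5.22 in KO and 6.69, 4.6 and 3.97 in LAC. It was called higher in KO than in ACT (adjusted p = 7.06e-05), at levels of a few CPM. Celf5 met the limit for listing only through KO and LAC, where it was high, so this p-value is not independent of that limit.

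The muscleblind genes, whose proteins bind UGCU-like motifs and compete with CELF proteins over developmental exons, did not all move alike. Mbnl1 was called in the same direction as Celf2 in each of the 4 comparisons, and Mbnl2 in 3 of them, without a call between ACT and LAC (log2 difference 0.14, adjusted p = 0.0774). Mbnl1 (chr3:60472830-60629750) was at 314, 309.5 and 281 CPM in QS, 414, 377 and 356 in ACT, 249, 212 and 266 in KO and 279.8, 286 and 313 in LAC. ACT was highest and KO lowest, and QS and LAC overlapped. It was lower in KO than in ACT by a log2 difference of -0.66 ± 0.08 (adjusted p = 5.59e-06). Its rise from KO to LAC (0.28 ± 0.08, adjusted p = 0.0128) lost the call without KO replicate 2 (adjusted p = 0.0601) and without LAC replicate 3 (adjusted p = 0.0611). Mbnl2 was at 144, 141 and 158 CPM in QS, 172, 169 and 164 in ACT, 132, 149.6 and 131 in KO and 198, 175 and 183 in LAC, and every LAC library was above every KO library. The rise with lactate was 0.43 ± 0.06 (log2, adjusted p = 7.41e-05), while the rise on activation (0.19) was lost without QS replicate 2 (adjusted p = 0.0524). Mbnl3 fell from 11 ± 1.34 to 3.24 ± 0.786 CPM, by -1.51 (log2, adjusted p = 4.77e-06), and was at 5.26 ± 0.27 in KO and 5.06 ± 1.3 in LAC. Macrophage and myofibroblast markers moved in the same comparisons as Mbnl1, and their part in the result was not tested.

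Rbfox2 (chr15:77078990-77307004), whose protein binds UGCAUG and serves mesenchymal and muscle splicing, rose on activation. It was at 78.8, 78.2 and 75.1 CPM in QS, 124, 135 and 130.2 in ACT, 133, 114 and 136 in KO and 141, 139 and 132 in LAC. QS was below all 9 others and the cultured groups overlapped. The rise from QS to ACT was 0.74 ± 0.06 (log2, adjusted p = 8.05e-08), and the adjusted p was 0.765 between ACT and KO and 0.198 between KO and LAC. Rbfox3, known as the neuronal marker NeuN, was at 10.7, 8.88 and 11.9 CPM in QS, 0.283, 0.173 and 0.0729 in ACT, 3.47, 2.31 and 3.4 in KO and 0.75, 1.9 and 1.68 in LAC. The ACT values are all under 1 CPM, so no fold is given. QS was highest and ACT lowest, with an adjusted p of 9.66e-09 between them and 1.11e-05 between ACT and KO. Rbfox3 met the limit for listing only through groups other than ACT, so these p-values are not independent of that limit. The endothelial marker sum had the same order of groups (QS, KO, LAC, ACT), as had the hepatocyte sum, and their part in the result was not tested.

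The scaling factor of a library cancels from a ratio between its genes, apart from the added 1 CPM, and 8 ratios were compared over 4 pairs of groups (32 tests). An exact two-sided permutation test of 3 against 3 libraries cannot give a p under 0.10, which became 0.133 after Benjamini-Hochberg adjustment, so no ratio could pass a threshold of 0.05. The log2 ratio of Ptbp3 to Ptbp1 was 0.93, 1.12 and 0.92 in QS, -0.11, -0.24 and -0.17 in ACT, -0.84, -1.08 and -0.71 in KO and -0.50, -0.48 and -0.35 in LAC. No 2 groups overlapped, in the order QS, ACT, LAC, KO from the highest to the lowest. The mean ratio of Ptbp2 to Ptbp1 was -2.71 ± 0.20 (mean ± SD) in QS and -3.46 ± 0.10 in KO, with -3.13 ± 0.06 for ACT and -3.00 ± 0.22 for LAC. The LAC libraries overlapped both ACT and QS in this ratio. The ratio of Celf2 to Celf1 was 1.34 ± 0.03 in ACT and 0.69 ± 0.15 in LAC, and below 0 in KO (-0.33 ± 0.02) and QS (-0.58 ± 0.05), with no overlap between groups.

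The ratio of Snrpn to Snrpb was lowest in QS (-4.0 ± 0.15) and highest in LAC (-2.51 ± 0.10), and ACT (-3.12 ± 0.05) and KO (-3.03 ± 0.24) overlapped. The ratio of Rbfox2 to Ptbp1 was higher in ACT (-1.13 ± 0.06) and LAC (-1.03 ± 0.04) than in QS (-1.67 ± 0.13) and KO (-1.51 ± 0.16). Those of Mbnl2 to Mbnl1 (-1.18 ± 0.08 in ACT, -0.81 ± 0.27 in KO) and Mbnl3 to Mbnl1 (-6.51 ± 0.15 and -5.28 ± 0.22) were higher in KO than in ACT. The ratio of Hnrnpll to Hnrnpl overlapped in all comparisons but LAC with ACT (-1.62 ± 0.13 and -1.88 ± 0.09).

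**Figure D4:**
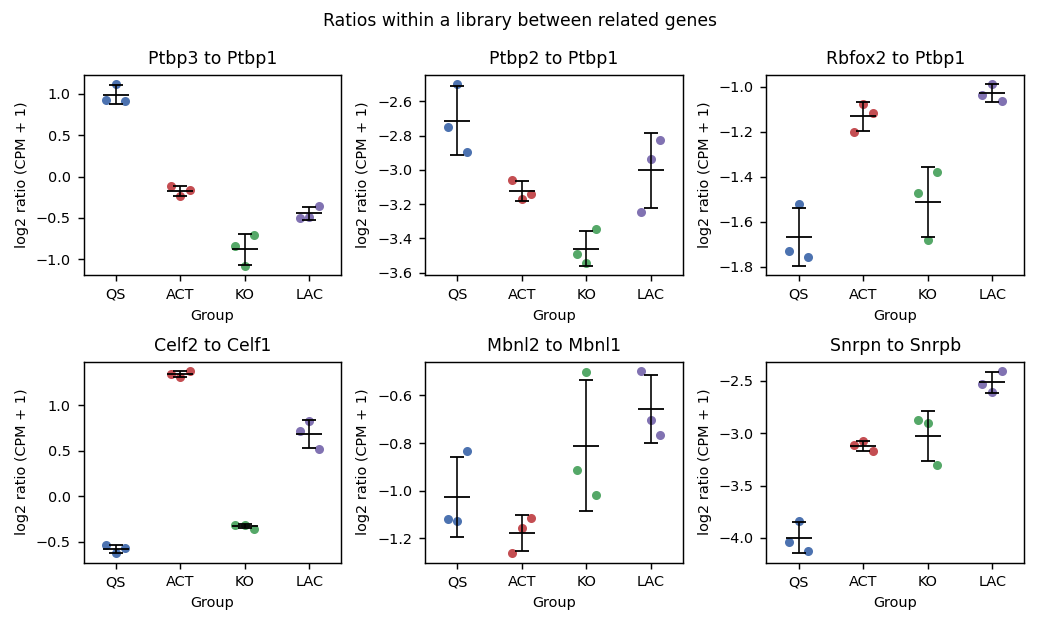
Log2 ratio of the levels (CPM + 1) of 2 paralogues or regulators in each library (points), by group, with the group mean (long bar) and SD (error bars). The ratio of Ptbp3 to Ptbp1 steps down from QS to ACT and KO and stands higher in LAC than in KO, while that of Celf2 to Celf1 is highest in ACT.

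Of splicing genes outside these families, 131 from 7 lists of the spliceosome and its regulators were in the table. On activation 34 rose and 48 fell (26.0% and 36.6%, against 38.0% and 35.5% of all genes), and with quantile normalisation 43 rose and 39 fell. In KO compared with ACT 60 were higher and 10 lower (45.8% and 7.63%, against 36.0% and 26.3%), in LAC compared with KO 2 were higher and 44 lower (1.53% and 33.6%, against 20.0% and 21.0%), and in LAC compared with ACT 27 were higher and 18 lower (20.6% and 13.7%, against 27.8% and 21.7%). The lists did not move alike on activation. Genes for the assembly of the Sm ring (the SMN complex and its methylation partners) rose in 9 of 13 cases (69.2%, against 38.0% of all genes), with a median of 0.33 (log2). Partners of the U1 and U2 particles fell in 11 of 18 (61.1%, against 35.5% of all genes), with a median of -0.27. In KO, 11 of the 18 U1 and U2 partners and 12 of 24 genes of the tri-snRNP (the U4/U6.U5 particle) were higher than in ACT. In LAC, 8 of the 18 and 9 of the 24 were lower than in KO.

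Single genes of these lists had changes of other sizes. Gemin5, which recognises snRNAs for Sm assembly, was at 49.4, 46.8 and 44.6 CPM in ACT, 74.9, 75.5 and 77.7 in KO and 62.5, 53.8 and 54.8 in LAC, with KO above both. The log2 difference from ACT to KO was 0.69 ± 0.07 (adjusted p = 9.01e-07) and that from KO to LAC was -0.41 ± 0.07 (adjusted p = 0.000301). Prpf4, a tri-snRNP protein, rose from 27.7 ± 1.49 CPM in ACT to 47.6 ± 1.48 in KO, its partner Prpf3 from 35.3 ± 0.68 to 54 ± 4.62, and Raly, an hnRNP C relative outside the name rule, from 112 ± 3.12 to 173 ± 9.71.

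Tra2b, an SR-like activator, fell from 131 ± 8.96 CPM in KO to 111 ± 7.98 in LAC. Qk, the quaking protein of mesenchymal splicing, fell from 313 ± 5.12 CPM in QS to 181 ± 1.92 in ACT and was at 182 ± 17.4 in KO and 177 ± 2.62 in LAC. Txnl4a, a U5 protein, rose on activation from 11.9 ± 0.899 to 22.8 ± 0.283 CPM, and Zrsr1, of the minor spliceosome, fell from 41.5 ± 3.01 to 16.6 ± 1.04. Of the SR protein kinases, Srpk1 rose on activation (28.3 ± 9.07 to 41.4 ± 2.59 CPM) and Clk1 was called in none of the comparisons (56.5, 44.1, 46.4 and 35.3 CPM in QS, ACT, KO and LAC). Srpk2 was at 43, 38.1 and 35.3 CPM in ACT, 22.6, 24.5 and 22 in KO and 33.1, 29.9 and 35.9 in LAC, a log2 difference of -0.73 and then 0.50.

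Bcas2, a subunit of the Prp19 complex, rose from 18.6 ± 5 CPM in QS to 32.3 ± 1.33 in ACT and was lower in KO (20.3 ± 5.24) and LAC (19.3 ± 3.91) than in ACT. The call in KO was lost without KO replicate 1 and that in LAC without LAC replicate 3. Isy1, of the catalytic spliceosome, was lower in LAC (13.7 ± 1.33 CPM) than in ACT (20.0 ± 1.45), as was Pspc1, a paraspeckle protein (18.3 ± 1.81 and 26.1 ± 0.9). Ddx41, a helicase of the catalytic steps, fell from 42.7 ± 3.93 CPM in KO to 30.7 ± 3.54 in LAC. Snrnp25, of the minor spliceosome, rose on activation from 3.3 ± 1.55 to 6.9 ± 0.654 CPM, and U2af1l4, a relative of the small U2AF subunit, fell from 6.79 ± 2.5 to 3.57 ± 1.13. The call of U2af1l4 was lost without QS replicate 3 and without ACT replicate 2 or 3. Snrnp35 was lower in KO (5.83 ± 1.21 CPM) than in ACT (8.58 ± 0.917), a call that was lost under quantile normalisation and with equal library totals, without ACT replicate 2 or 3 and without KO replicate 1 or 3. Rbpms, an RNA-binding protein of smooth muscle, was at 87.5 ± 8.13, 66 ± 4.42, 86.4 ± 3.15 and 74.7 ± 1.53 CPM in QS, ACT, KO and LAC and fell on activation by 0.40 (log2), with a log2 difference of 0.38 from ACT to KO. Its calls between KO and LAC and between ACT and LAC were lost on leaving out single libraries. Tra2a, the paralogue of Tra2b, was called in LAC compared with ACT alone (45.7 ± 7.26 and 58.4 ± 3.32 CPM, adjusted p = 0.0251), and that call was lost without ACT replicate 2 or 3 and without LAC replicate 1.

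Rbm47 and Nova2 differed widely between the groups, each in the order of a marker sum of another cell type. Rbm47, an epithelial and myeloid RNA-binding protein, was at 33.7, 35.2 and 31.8 CPM in QS, 53.2, 43.6 and 46 in ACT, 1.85, 1.85 and 2.84 in KO and 13.3, 12.3 and 12.6 in LAC, highest in ACT and lowest in KO as the macrophage sum was. The log2 difference from ACT to KO was -3.94 ± 0.13 (adjusted p = 3.4e-12). Nova2, a regulator known from neurons and endothelium, was at 40.4, 40.3 and 44.5 CPM in QS, 1.27, 1.47 and 1.6 in ACT, 25.6, 32.1 and 25.2 in KO and 13.8, 12.6 and 12.7 in LAC, in the order of the endothelial sum. It differed by -4.13 ± 0.12 (log2) between QS and ACT (adjusted p = 4.34e-13) and by 3.54 ± 0.12 between ACT and KO (adjusted p = 4.3e-12). Esrp2, an epithelial regulator, was at 2.27 ± 0.56, 6.9 ± 0.894, 9.73 ± 0.733 and 11.1 ± 1.78 CPM in QS, ACT, KO and LAC, and Esrp1 was not listed. The order of Esrp2 was that of none of the macrophage, endothelial and hepatocyte sums. The part of other cell types in Rbm47 and Nova2 was not tested. Dhx35 was listed at nearly 0 in 2 QS libraries and at 10.2 CPM in ACT, and its call on activation was lost on leaving out either of them, ACT replicate 1 or ACT replicate 2, and under moderation without a trend.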

How the data were processed

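RNA of 12 libraries (3 each of QS, ACT, KO and LAC) was sequenced from poly(A) libraries made with a stranded kit, per the labels' protocols. The authors deposited a table of normalised CPM, used here as a signal because the column totals (959233 to 1047042) partly exceed what plain CPM can reach, so a further scaling factor of each library is in the deposited signal. The submitters' processing notes name the tools kallisto 0.44.0, edgeR 3.8, cutadapt 1.18 and FastQC 0.11.8 and the build mm10, with no role or order. Only 19.7% to 25.7% of each library's positive values lay within 0.01 of a whole read, so reads were not recovered and no count test was run. Depth was estimated from the value of 1 read in each library. Replicate libraries differed beyond counting error (chi-square per gene from 2.11 to 5.78) and each was kept.

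Titles gave each library its group and number. Limma 3.58.1 in R 4.3.3 was fitted to log2(CPM + 1) of all 12081 genes with 4 group means, 8 residual degrees of freedom and moderation along the intensity trend, and p-values were adjusted by Benjamini-Hochberg over all genes in each comparison. All listed genes reached 1 CPM in 3 or more libraries, so no further filter was needed. The added 1 CPM understates the change of genes at low levels. Ratios of paralogues were compared by exact two-sided permutation tests. Gene positions and transcript types came from GENCODE M21 (mm10), and promoters from RefSeq (GRCm38.p6).

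The text names, per comparison, the 6 largest rises and 6 largest falls among members called with at least 5 CPM, further members listed by symbol, and the 4 largest rises and falls of other splicing genes. Of the other splicing genes that this rule names, 1 is not reported here. Some further members, and genes singled out beside them, were chosen after their values were seen. The members and the lists were chosen with earlier results of these data known. Alternatives were other pseudocounts, scalings, filters, thresholds and moderation, a replicate block, a fit of 2 groups alone and leaving out each library.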

Additional observations from a re-analysis of the deposited data

How the results depend on the processing

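Of 182 fold changes of single genes, 140 kept their direction and their side of the usual threshold under the alternatives applied to single genes. The limits of an adjusted p under 0.01 and of at least 1.5-fold were applied only to the counts of called genes given below. The sign changed for 2 of the 182, both under quantile normalisation: Sf3b3 in ACT vs QS (0.0183) and Pkm in LAC vs KO (-0.0919). The cause was not tested. All 192 recomputed ratios of paralogues that separated groups kept their direction. Leaving out a library could not reverse a ratio whose groups did not overlap, so only the other pseudocounts could have done so. Asking for at least 1.5-fold left, for the members in total, higher and lower, 15, 7 and 8 in ACT vs QS, 5, 3 and 2 in KO vs ACT, 2, 1 and 1 in LAC vs KO, and 4, 3 and 1 in LAC vs ACT. For the other splicing genes it left 24, 11 and 13, then 11, 7 and 4, then 2, 1 and 1, and then 5, 2 and 3. At an adjusted p under 0.01, 13 members were higher in KO than in ACT (22 at the usual threshold), and of the other splicing genes 22 were higher in ACT than in QS (34), 1 higher in LAC than in KO (2) and 11 lower in LAC than in ACT (18). Leaving out single libraries gave 7 to 12 members lower in KO than in ACT (12 without KO replicate 3). Of the other splicing genes it gave 2 to 4 higher in LAC than in KO (4 without KO replicate 2) and 11 to 16 lower in LAC than in ACT (11 without ACT replicate 3). Scaling to equal totals moved the median of all genes from 0.03 to 0.11 (log2) in ACT vs QS. Replicate numbers showed no clear pairing of the samples: deviations of same-numbered libraries correlated between -0.12 and 0.23, 4 of 18 over 0.1, and 4 of 12 libraries correlated best with their own number. Libraries of different numbers correlated between -0.17 and 0.16. Such correlations within groups of 3 cannot exclude a pairing. With a replicate block the members called higher and lower were 28 and 22, 23 and 7, 3 and 29, and 7 and 19. Depth limits the scarce genes: in the shallowest library 3 reads were 0.720 CPM, above every ACT value of Rbfox3.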
